A study of Mus musculus with 30 samples.

Results

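The tumour suppressor p53 and 9 of its targets in cell cycle arrest, feedback and damage response were followed across all 30 arrays of a bead array study of mouse embryonic stem cells (ESCs). The 10 genes, Trp53 (which encodes p53), Mdm2, Cdkn1a, Ccng1, Trp53inp1, Phlda3, Perp, Rrm2b, Psrc1 and Tnfrsf10b, were found by their symbols among 18097 genes on the array, with all of their probes. They had 24 of the 25697 probes, of which 21 were detected on at least 3 of the 30 arrays and were among the 15151 probes tested. The 3 probes left out, 2 for Rrm2b and 1 for Tnfrsf10b, were detected on no array, and every gene kept at least 1 tested probe.

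All cells were rescue clones of the ESC line Ainv15 (strain background 129P2/OlaHsd), which carries the rtTA transactivator. In Bub1b_R, Chek1_R, Ppm1g_R and Ppp2r1b_R a lentiviral shRNA was directed at the endogenous mRNA of the named gene, while doxycycline (Dox, 1 ug/ml) turns on a copy that the shRNA cannot target, linked to eGFP. Control_R is the control clone. Each of the 5 clones was profiled with Dox and 5 days after Dox was taken away, on 3 arrays per condition. By design, taking Dox away removes the rescue copy and depletes the cells of BUB1B, a mitotic checkpoint kinase, CHEK1, a DNA damage checkpoint kinase, PPM1G, a protein phosphatase, or PPP2R1B, a scaffold subunit of protein phosphatase PP2A, and these 4 clones are called depleted clones for that design. The paper states that 3 independent clones were made for each rescue gene. The labels do not say whether the 3 arrays of a condition came from 1 clone or several, or from separate cultures. Each name is treated here as 1 clone. The p-values measure the spread between these arrays, which may be technical. The clones were maintained on mouse embryonic fibroblast feeders, which were removed first, and the 5 days with or without Dox were feeder-free.

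The 4 short hairpins are shown because they define which mRNA was targeted in each clone. Those against Bub1b and Chek1 target sequence that the rescue copy lacks, and those against Ppm1g and Ppp2r1b target coding sequence that the rescue copy carries with silent changes.
Bub1b_R: gcacacttagacacatcagca
Chek1_R: cccatgtagtagtatcacttt
Ppm1g_R: gccttgtactgtgccaaatat
Ppp2r1b_R: gctccgtctcaacagtattaa

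p53 is a transcription factor that is held at low level by MDM2, an E3 ubiquitin ligase whose own gene p53 switches on, so that the pair form a feedback loop. When DNA is damaged or mitosis fails, p53 accumulates and turns on genes that stop the cell cycle, above all Cdkn1a (p21), as well as genes for repair and for cell death. In mouse ESCs p53 is abundant, the G1 arrest is weak, and p53 has been tied to the loss of self-renewal when cells differentiate. mRNA levels do not show p53 protein or its activity, which is set mostly after translation.

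p53 binds pairs of a short palindromic motif, the p53 half-site. The stretches of 4 members' promoters that hold a match to the half-site consensus are shown so that the motif can be seen in its place. The matches are in capitals, each stretch is written 5′ to 3′ on the gene's strand, and all are RefSeq sequence of mouse build GRCm38.p6. The Trp53 stretch (plus strand) lies at chr11:69580259-69580318, the Mdm2 stretch (minus strand) at chr10:117710910-117710969, the Cdkn1a stretch (plus strand) at chr17:29090881-29090962 and the Ccng1 stretch (minus strand) at chr11:40755437-40755496.
Trp53: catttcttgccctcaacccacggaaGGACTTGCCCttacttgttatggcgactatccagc
Mdm2: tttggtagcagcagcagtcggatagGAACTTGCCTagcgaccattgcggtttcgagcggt
Cdkn1a: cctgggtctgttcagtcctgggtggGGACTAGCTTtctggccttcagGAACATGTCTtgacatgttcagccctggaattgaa
Ccng1: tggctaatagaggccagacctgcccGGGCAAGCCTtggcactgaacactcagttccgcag

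The windows searched ran from 250 bases before to 50 bases after a gene's start. The half-site began 75 bases before the start in Trp53, 186 in Mdm2 and 185 in Ccng1, and the pair in Cdkn1a began 73 and 51 bases before the start with a spacer of 12 bases. Cdkn1a's window at its other annotated start, and those of Phlda3 and Psrc1, held no match; Trp53inp1, Perp, Rrm2b and Tnfrsf10b had no entry in the promoter table. Of the members' 8 windows, 4 held a half-site, against 8.36% of the 32851 promoter windows of all genes, and 24 of those windows (0.0731%) held a pair with a spacer of 0 to 13 bases. The motif is its own reverse complement, so that 1 search covers both strands. A match describes the letters only.

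The arrays had between 11733 and 13685 probes detected (detection p under 0.05), and arrays of 1 condition correlated at 0.99 or more over all tested probes. The signal at the limit of detection divided the arrays into 2 sets: among the 12 Bub1b_R and Control_R arrays the weakest signal called detected ranged from 12.9 to 20.9, and among the 18 arrays of the other 3 clones from 27.8 to 58.1. Differences of the latter from Control_R therefore cross the sets, and clone and set cannot be told apart there. The sample records of the Control_R arrays are also of an earlier submission than those of the 4 depleted clones, so clone and submission cannot be told apart in any comparison with Control_R, Bub1b_R included. All 11 ESC markers on the array were detected on every array.

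The probe of the targeted gene fell on Dox withdrawal in 1 of the 4 depleted clones. In Ppm1g_R the Ppm1g probe gave log2 9.76, 9.76 and 9.82 with Dox and 8.61, 8.40 and 8.59 without Dox. In Bub1b_R the Bub1b probe had means of 9.84 with Dox and 9.70 without (change −0.14, 95% interval −0.30 to 0.02). It differed from Control_R by −0.67 without Dox and by −0.70 with Dox (adjusted p = 1.05e-07 and 1.08e-07 in limma). The difference was thus there with the rescue gene on. In Ppp2r1b_R the Ppp2r1b probe had means of 6.09 and 6.29 (change 0.20, −0.11 to 0.51), with overlapping arrays, and differed from Control_R without Dox by −0.25 (adjusted p = 0.158 in limma). With Dox that difference was −0.61 (adjusted p = 0.00124 in limma). The Chek1 probe went against its Dox label: it was detected on 0 of 3 arrays labelled Chek1_R with Dox and on 3 of 3 without Dox. In both conditions it was lower than in Control_R, by −1.87 with Dox and −1.07 without (adjusted p = 1.33e-09 and 3.06e-06 in limma). In every other clone it was detected on all arrays. Whether these probes read the rescue copies was not tested. The mesoderm gene T, by contrast, rose as labelled on the arrays labelled Chek1_R, from a mean of 6.41 with Dox to 10.85 without, the same direction as in the other 3 depleted clones.

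When the rescue gene was switched off, none of the 10 genes passed as higher in any depleted clone by the threshold used here (an adjusted p under 0.05 in limma with Benjamini-Hochberg adjustment, and at least 1.5-fold). Of the 40 changes, 10 genes in 4 depleted clones, each read by its brightest probe, 0 passed as higher and 2 as lower, both for Tnfrsf10b. As labelled, the largest positive change was 0.31 on the log2 scale, or 1.24-fold, for Trp53inp1 in Ppm1g_R, and the upper 95% limits of all 40 changes lay under 1.5-fold, the highest at 1.44-fold. These limits are those of the brightest probes, and that of Perp was near the detection limit. The second Tnfrsf10b probe in Ppp2r1b_R, given below, had an upper limit past 1.5-fold. Were the Dox labels of the Chek1_R arrays turned, their 10 values would change sign, so that 1 of the 40 would pass as higher, Tnfrsf10b at 0.90, and Mdm2 would stand at 0.40. In Control_R 0 of 10 passed (limma; 1 had an unadjusted p under 0.05).

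The share of all 11177 tested genes past the same threshold was 6.24% for Bub1b_R, 9.92% for the arrays labelled Chek1_R, 4.63% for Ppm1g_R, 4.97% for Ppp2r1b_R and 1.15% for Control_R. The members' counts, 0, 1, 1, 0 and 0 of 10, were close to what those shares give for 10 genes. At an adjusted p under 0.05 with no fold limit, 2, 5, 4, 3 and 0 of 10 members passed, beside 26.8%, 33.5%, 25.4%, 26.9% and 8.38% of all genes. The median change of the 10 members was −0.10 for Bub1b_R, −0.15 for the arrays labelled Chek1_R, −0.01 for Ppm1g_R, 0.00 for Ppp2r1b_R and −0.03 for Control_R, beside medians of all genes between −0.02 and −0.01.

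**Figure D1:**
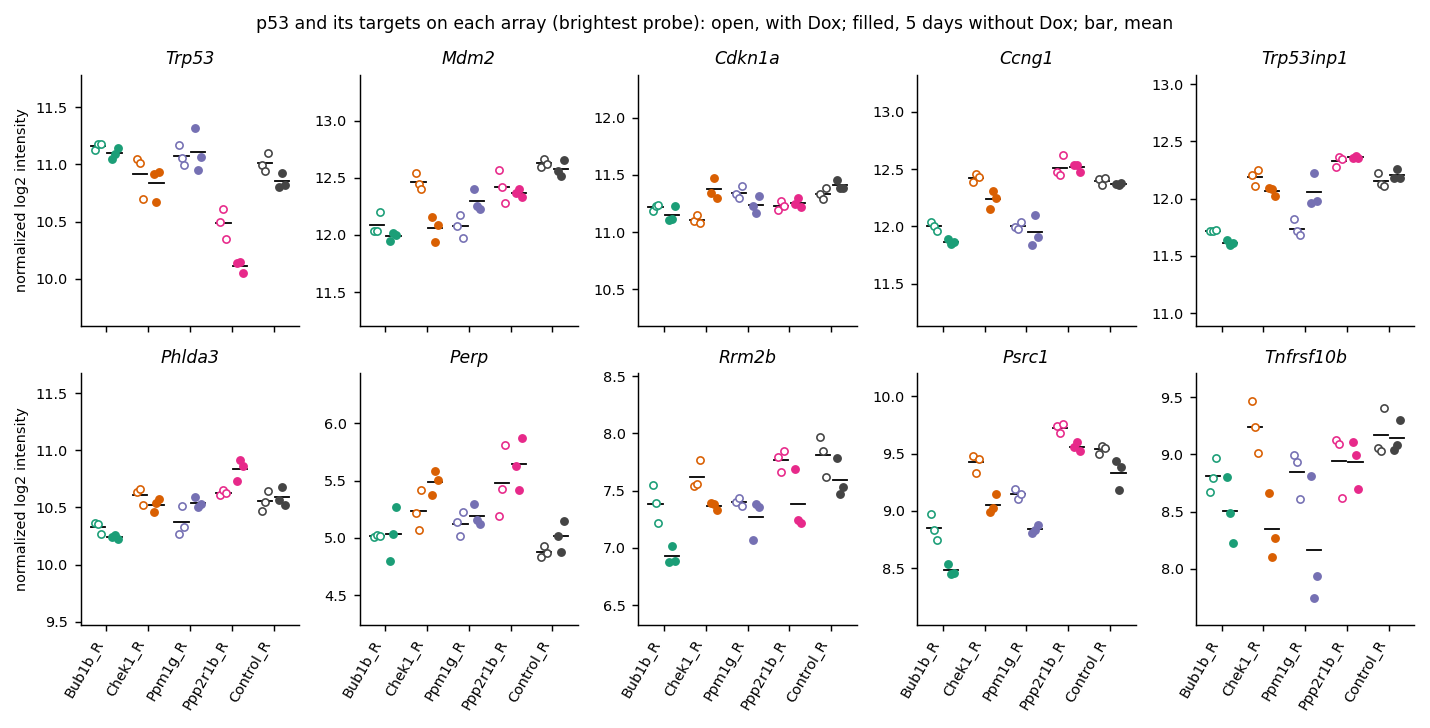
Normalized log2 intensity of the brightest probe of each of the 10 genes on every array (vertical axis, 2.2 log2 units in each panel) by clone (horizontal axis), with open points for arrays with Dox, filled points for arrays without Dox and bars for the mean of 3. The Trp53 points of Ppp2r1b_R, at 10.05 to 10.61, lie below those of every other clone, and the Psrc1 points without Dox lie below those with Dox in all 5 clones.

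Trp53 itself was read by 1 probe, detected on all 30 arrays. In Bub1b_R it gave log2 intensities of 11.13, 11.18 and 11.18 with Dox and 11.05, 11.09 and 11.15 without. On the arrays labelled Chek1_R it gave 11.05, 11.02 and 10.70 with Dox and 10.92, 10.67 and 10.94 without. In Ppm1g_R it gave 11.17, 11.05 and 11.00 with Dox and 11.32, 10.95 and 11.06 without. The arrays with and without Dox overlapped in these 3 clones. In Ppp2r1b_R it gave 10.50, 10.61 and 10.35 with Dox and 10.14, 10.15 and 10.05 without, with no overlap. In Control_R it gave 11.00, 10.95 and 11.10 with Dox and 10.81, 10.92 and 10.82 without, again with no overlap.

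The change of Trp53 on Dox withdrawal in Ppp2r1b_R was −0.37 (SE 0.095, 95% interval −0.57 to −0.17, adjusted p = 0.00557 in limma), short of 1.5-fold. In Control_R it was −0.16 (95% interval −0.36 to 0.03). The changes of the 4 depleted clones did not differ from one another past the threshold (F-test in limma, adjusted p = 0.107). Ppp2r1b_R was set apart by level: Trp53 was −0.74 from Control_R without Dox (95% interval −0.93 to −0.54, adjusted p = 3.5e-07 in limma), past the threshold, and −0.53 with Dox (−0.73 to −0.33), so that most of the difference was there with the rescue gene on. This comparison crosses the 2 array sets. The other clones lay between −0.09 and 0.26 from Control_R.

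Mdm2, the negative regulator of p53 and its feedback target, was read by 2 bright probes that gave like values and by a dim one, detected on 6 arrays. The brightest gave 12.04, 12.04 and 12.20 in Bub1b_R with Dox and 11.95, 12.01 and 12.00 without. On the arrays labelled Chek1_R it gave 12.55, 12.45 and 12.40 with Dox and 12.16, 11.94 and 12.09 without. In Ppm1g_R it gave 12.08, 12.18 and 11.98 with Dox and 12.40, 12.26 and 12.22 without. It was thus lower without Dox on all arrays labelled Chek1_R and higher without Dox on all arrays of Ppm1g_R. In Ppp2r1b_R it gave 12.57, 12.42 and 12.28 with Dox and 12.37, 12.40 and 12.33 without, and in Control_R 12.59, 12.66 and 12.62 with Dox and 12.55, 12.51 and 12.65 without, overlapping in both.

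The Mdm2 change was −0.40 (SE 0.075, 95% interval −0.56 to −0.25, adjusted p = 0.000171) on the arrays labelled Chek1_R and 0.21 (0.06 to 0.37, adjusted p = 0.0405) in Ppm1g_R, both in limma and both under 1.5-fold. The second probe gave −0.38 and 0.24. The difference among the 4 clones passed the test for both probes (F-test in limma, adjusted p = 0.00132 and 0.000122). Beside the change in Control_R, that on the arrays labelled Chek1_R was −0.35 (adjusted p = 0.0215 in limma, under 1.5-fold).

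Cdkn1a encodes p21, the inhibitor of cyclin-dependent kinases through which p53 stops the cycle. Its brightest probe gave 11.19, 11.23 and 11.23 in Bub1b_R with Dox and 11.10, 11.12 and 11.23 without. On the arrays labelled Chek1_R it gave 11.09, 11.15 and 11.08 with Dox and 11.34, 11.48 and 11.30 without. In Ppm1g_R it gave 11.33, 11.30 and 11.41 with Dox and 11.23, 11.17 and 11.32 without. The arrays labelled Chek1_R were the ones with no overlap, and they were higher without Dox. In Ppp2r1b_R Cdkn1a gave 11.20, 11.27 and 11.23 with Dox and 11.25, 11.30 and 11.22 without. In Control_R it gave 11.33, 11.29 and 11.39 with Dox and 11.46, 11.39 and 11.38 without. Without Dox, the arrays labelled Chek1_R overlapped those of the control clone.

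The Cdkn1a change on the arrays labelled Chek1_R was 0.27 (SE 0.056, 95% interval 0.15 to 0.38, 1.11- to 1.30-fold, adjusted p = 0.000655 in limma), under 1.5-fold. Its other probes gave 0.17 and 0.27 there. Beside the change in Control_R, that of the brightest probe was 0.20 (95% interval 0.03 to 0.36, adjusted p = 0.0967 in limma), not past the threshold. The opposite movement of Cdkn1a and Mdm2 on these arrays is a description of these 2 genes. In Ppm1g_R the second probe gave −0.37 (adjusted p = 0.000721 in limma) and the brightest −0.11 (95% interval −0.22 to 0.01). The difference among the 4 clones passed the test for the brightest probe (F-test in limma, adjusted p = 0.00455). In Bub1b_R and Ppp2r1b_R the intervals were −0.18 to 0.05 and −0.09 to 0.14.

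**Figure D2:**
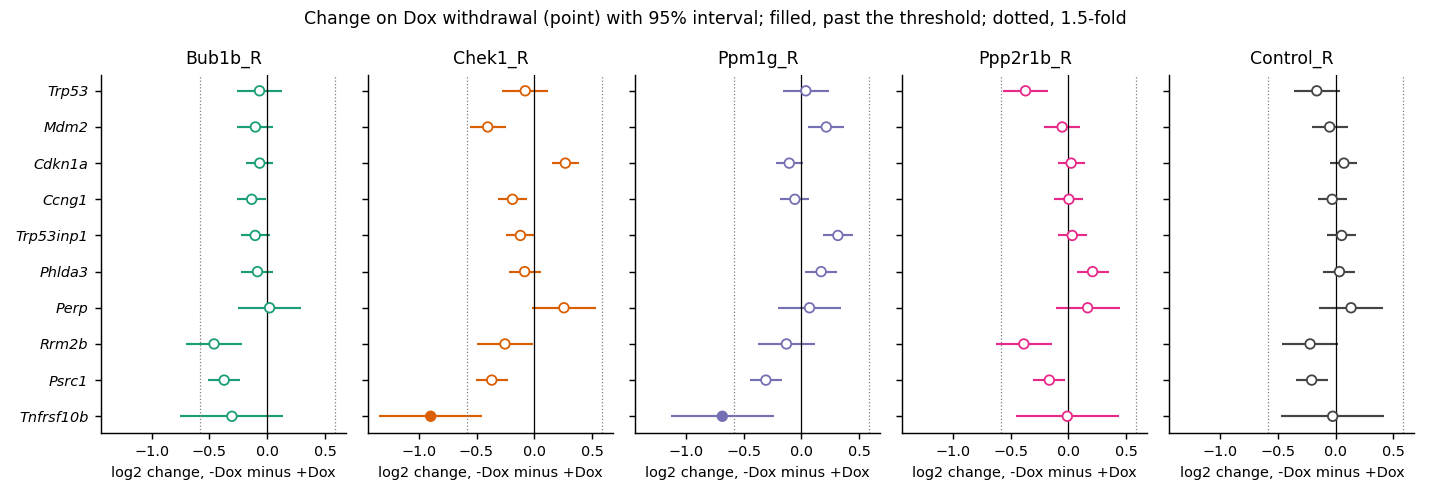
Change on Dox withdrawal (horizontal axis, log2 intensity without Dox minus with Dox) of the brightest probe of each gene (vertical axis) in each clone, with 95% intervals from limma, filled points for changes past the threshold and dotted lines at 1.5-fold. The 2 filled points are Tnfrsf10b on the arrays labelled Chek1_R (−0.90) and in Ppm1g_R (−0.68), and all intervals end short of 1.5-fold on the higher side.

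Ccng1 encodes cyclin G1, which takes part in the feedback on p53 through MDM2 and phosphatase PP2A. Its 3 probes were detected on all 30 arrays. The brightest gave changes of −0.14, −0.19, −0.06, 0.00 and −0.03 in Bub1b_R, the arrays labelled Chek1_R, Ppm1g_R, Ppp2r1b_R and Control_R; the arrays labelled Chek1_R were lower without Dox with no overlap (12.39, 12.46 and 12.43 against 12.16, 12.31 and 12.25; adjusted p = 0.0189 in limma, under 1.5-fold). The probes did not give 1 answer: the second gave 0.26 in Ppm1g_R (adjusted p = 0.00779 in limma) and the third −0.36 in Bub1b_R (adjusted p = 0.00159 in limma). With the mean of each clone removed, the brightest probe correlated with the second at −0.22 and with the third at 0.54 over the 30 arrays, which share clones and array sets.

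Trp53inp1 encodes a nuclear protein that promotes p53 phosphorylation and is itself a target. Its brightest probe gave 11.82, 11.72 and 11.68 in Ppm1g_R with Dox and 11.96, 12.23 and 11.98 without, higher without Dox on all arrays. That change was 0.31 (SE 0.061, 95% interval 0.19 to 0.44, adjusted p = 0.000496 in limma), under 1.5-fold. The second probe gave 0.05. In the other 4 clones the brightest probe changed by −0.12 to 0.05, none with an adjusted p under 0.05, and the difference among the 4 depleted clones passed the test (F-test in limma, adjusted p = 0.00172).

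Phlda3, which encodes an inhibitor of AKT signalling, gave 10.61, 10.65 and 10.63 in Ppp2r1b_R with Dox and 10.73, 10.92 and 10.86 without, with no overlap. That change was 0.21 (95% interval 0.07 to 0.35, adjusted p = 0.0243 in limma), under 1.5-fold. The F-test in limma among the clones gave an adjusted p of 0.0256, and 0.695 with arrays scaled on their medians. Changes in the other clones lay between −0.09 and 0.17. These values are those of the brightest probe. The second probe had means of 9.09 with Dox and 9.29 without in Ppp2r1b_R, with overlapping arrays (F-test among the clones in limma, adjusted p = 0.232).

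Perp, which encodes a membrane protein of cell junctions and of p53-dependent death, was near the detection limit. Its probe was detected on 4 of 30 arrays, 3 of Ppp2r1b_R and 1 labelled Chek1_R. It passed the filter through those arrays, and its changes of 0.02 to 0.26 are those of a dim probe. All arrays of Control_R were below detection, and in Ppp2r1b_R it was detected on 1 of 3 arrays with Dox and 2 of 3 without. No fold is therefore given for its difference in Ppp2r1b_R from Control_R. The measured means were 5.64 and 5.01 without Dox and 5.47 and 4.88 with Dox.

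Rrm2b, which encodes the p53-inducible subunit of ribonucleotide reductase, was read by 1 tested probe. It gave 7.55, 7.39 and 7.22 in Bub1b_R with Dox and 6.88, 7.01 and 6.89 without. In Ppp2r1b_R it gave 7.79, 7.66 and 7.85 with Dox and 7.69, 7.24 and 7.21 without. The former groups did not overlap and the latter did. The changes were −0.46 (SE 0.12, 95% interval −0.70 to −0.22, adjusted p = 0.00515) and −0.39 (−0.63 to −0.14, adjusted p = 0.0182), both in limma and both under 1.5-fold. The other clones gave −0.25, −0.13 and, in Control_R, −0.22 (95% interval −0.46 to 0.02).

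Psrc1, which encodes a microtubule-associated protein of the mitotic spindle, was lower without Dox in every clone, with no overlap between conditions. It gave 8.98, 8.83 and 8.75 in Bub1b_R with Dox and 8.54, 8.44 and 8.45 without. On the arrays labelled Chek1_R it gave 9.48, 9.33 and 9.46 with Dox and 8.99, 9.03 and 9.15 without. In Ppm1g_R it gave 9.19, 9.10 and 9.14 with Dox and 8.81, 8.83 and 8.88 without. The changes in these 3 clones, −0.37, −0.37 and −0.31, had adjusted p of 0.000181, 0.00014 and 0.00154 in limma and were under 1.5-fold. Control_R moved the same way, by −0.21 (9.50, 9.57 and 9.55 with Dox, 9.44, 9.18 and 9.39 without; 95% interval −0.35 to −0.07, adjusted p = 0.063 in limma), and so did Ppp2r1b_R, by −0.17. In no clone did the change differ from that in Control_R at an adjusted p under 0.05.

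Tnfrsf10b encodes a TRAIL receptor that passes death signals from the cell surface. Its brightest probe gave 8.67, 8.79 and 8.96 in Bub1b_R with Dox and 8.80, 8.49 and 8.23 without. On the arrays labelled Chek1_R it gave 9.47, 9.24 and 9.01 with Dox and 8.66, 8.10 and 8.27 without. In Ppm1g_R it gave 9.00, 8.93 and 8.61 with Dox and 8.81, 7.74 and 7.94 without. The arrays labelled Chek1_R did not overlap, and in Ppm1g_R 1 array without Dox lay among those with Dox. In Ppp2r1b_R it gave 9.12, 9.09 and 8.62 with Dox and 9.11, 9.00 and 8.70 without, and in Control_R 9.05, 9.03 and 9.41 with Dox and 9.04, 9.08 and 9.30 without, overlapping in both.

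By this probe Tnfrsf10b fell by 0.90 on the log2 scale (SE 0.22, 95% interval −1.34 to −0.45, adjusted p = 0.00225 in limma) on the arrays labelled Chek1_R and fell by 0.68 (−1.13 to −0.24, adjusted p = 0.0226 in limma) in Ppm1g_R. The other 3 tested probes gave −0.12, −0.09 and −0.18 on the arrays labelled Chek1_R, and −0.37, −0.34 and −0.17 in Ppm1g_R, where the second and the third had adjusted p of 0.00107 and 0.0104 in limma and none reached 1.5-fold. In Ppp2r1b_R the second probe gave 0.48 (95% interval 0.32 to 0.65, adjusted p = 6.39e-05 in limma), while the brightest gave −0.01. The remaining tested probes also had higher means without Dox in Ppp2r1b_R. The brighter of them went from 8.37 with Dox to 8.51 without, with overlapping arrays. The dimmer went from 6.20 with Dox to 6.51 without. In this clone the brightest probe alone did not rise. The brightest probe correlated at 0.32, 0.23 and 0.18 with the others over the 30 arrays after removal of clone means. Both calls thus rest on 1 probe of 4. With the mean of the 4 probes the changes were −0.32 and −0.39, under 1.5-fold, and the Ppm1g_R call was also lost without replicate 1 or 2 with Dox or replicate 2 or 3 without Dox (changes of −0.47 to −0.64, adjusted p = 0.073 to 0.16 in limma).

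**Figure D3:**
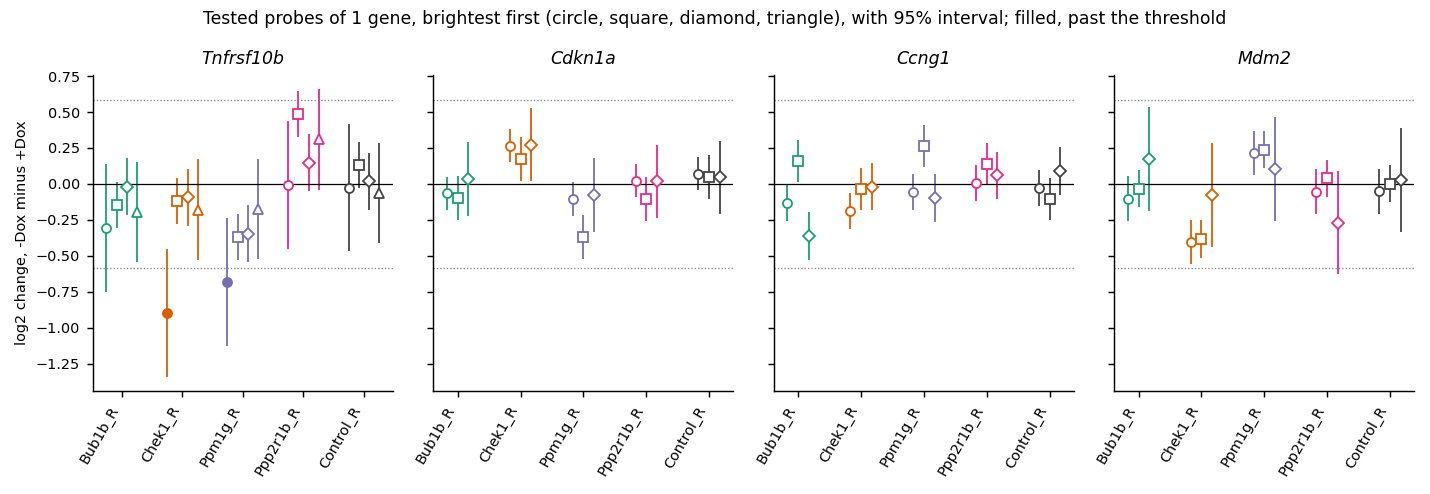
Change on Dox withdrawal (vertical axis, log2) for each tested probe of Tnfrsf10b, Cdkn1a, Ccng1 and Mdm2 in each clone (horizontal axis), in order of brightness from circle to triangle, with 95% intervals and filled points past the threshold. The circle of Tnfrsf10b on the arrays labelled Chek1_R (−0.90) lies below its other probes (−0.18 to −0.09), while the circle and square of Mdm2 lie together (−0.40 and −0.38).

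Averaged over the 4 depleted clones, 0 of 10 members passed the threshold, beside 4.04% of all genes. Without the fold limit 5 passed, all lower, beside 48.9% of all genes: Tnfrsf10b (−0.47), Rrm2b (−0.31), Psrc1 (−0.30), Trp53 (−0.12) and Ccng1 (−0.09), with limma adjusted p from 6.29e-08 to 0.0425. The other 3 tested probes of Tnfrsf10b gave −0.04, −0.08 and −0.06, with adjusted p of 0.458, 0.201 and 0.608 in limma. The value for Ccng1 turned to 0.13 with its second probe. The interval of the mean change of Cdkn1a was −0.03 to 0.09 and that of Mdm2 −0.16 to −0.01.

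When the change in Control_R was subtracted, 1 of 40 values passed, that of the brightest Tnfrsf10b probe for the arrays labelled Chek1_R, at −0.87 (limma, adjusted p = 0.0484). It was also lost with no background correction or no detection filter, with the mean of the probes or the second probe, and on leaving out any 1 of the 12 arrays of the 2 clones other than replicate 3 with Dox of either clone and replicate 1 without Dox of the Chek1_R set. The shares of all genes past the same threshold were 5.56% for Bub1b_R, 9.6% for the arrays labelled Chek1_R, 5.56% for Ppm1g_R and 3.42% for Ppp2r1b_R. Across the 4 clones, the change differed at an F-test adjusted p under 0.05 for 4 of 10 members, Mdm2, Cdkn1a, Trp53inp1 and Phlda3, beside 26% of all genes. With arrays scaled on their medians 1 of them, Cdkn1a, passed (adjusted p = 0.0135 in limma), while Mdm2 had 0.13, Trp53inp1 0.546 and Phlda3 0.695.

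The study also set each clone beside Control_R. Without Dox, Bub1b_R, whose arrays had a detection limit like that of Control_R, had 5 of 10 members past the threshold, all lower, beside 23.9% of all genes. They were Psrc1 (−0.85, SE 0.067), Rrm2b (−0.67, SE 0.12), Tnfrsf10b (−0.64, SE 0.22), Trp53inp1 (−0.59, SE 0.061) and Mdm2 (−0.59, SE 0.075), with limma adjusted p from 1.25e-10 to 0.0154. The Tnfrsf10b call rests on its brightest probe. Its other tested probes had means of 7.98, 7.51 and 5.83 in Bub1b_R and 8.08, 7.53 and 5.86 in Control_R. The second probes of Mdm2 (11.27 against 11.88) and Trp53inp1 (8.60 against 9.68) were lower in Bub1b_R as well. The arrays of both clones did not overlap for the brightest probe of any of the 5. The 5 were picked by their differences on these same arrays, so the lack of overlap adds nothing to the calls. The share of all genes without overlap was not counted. With Dox, Psrc1 passed (−0.69, adjusted p = 1.34e-08 in limma; −0.55 and no longer past 1.5-fold with median scaling), beside 13.3% of all genes, and without replicate 3 of Bub1b_R 2 members passed. With Dox Mdm2 stood at −0.53, Trp53inp1 at −0.43 and Rrm2b at −0.43, each with an adjusted p under 0.05. The members' median difference in Bub1b_R was −0.54 without Dox and −0.38 with Dox, so that much of the distance was there with the rescue gene on.

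These differences moved with the scaling. With arrays scaled on their medians in place of quantile normalization, which shifted the median of all genes by 0.15 without Dox, 1 of the 5, Psrc1, stayed past the threshold, and the members' median became −0.32. All 5 kept their sign, at −0.36 for Trp53inp1 and −0.37 for Mdm2. Leaving out 1 array left 4 calls, or 3 without replicate 3 of Control_R.

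The other 3 clones were compared with Control_R across array sets. Without Dox 1 member passed for the arrays labelled Chek1_R (Tnfrsf10b, −0.79), 1 for Ppm1g_R (Tnfrsf10b, −0.98) and 1 for Ppp2r1b_R (Trp53, lower), beside 29%, 33.5% and 33.1% of all genes. With Dox 0, 0 and 0 passed, beside 17.7%, 28.8% and 27.5%. Perp in Ppp2r1b_R is left out of both counts, since it entered the fit through the arrays on which it was high. The 2 Tnfrsf10b calls rest on its brightest probe. Without Dox its second probe had means of 8.05, 7.87 and 8.08 for the arrays labelled Chek1_R, Ppm1g_R and Control_R. The third probe had 7.75, 7.62 and 7.53, and the fourth 5.87, 5.96 and 5.86, in the same order. Probes of 1 gene parted here: the second probe of Trp53inp1 had means of 10.57 to 11.17 in these 3 clones and 8.60 to 9.68 in Bub1b_R and Control_R, a division by array set that its brightest probe did not show.

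**Figure D4:**
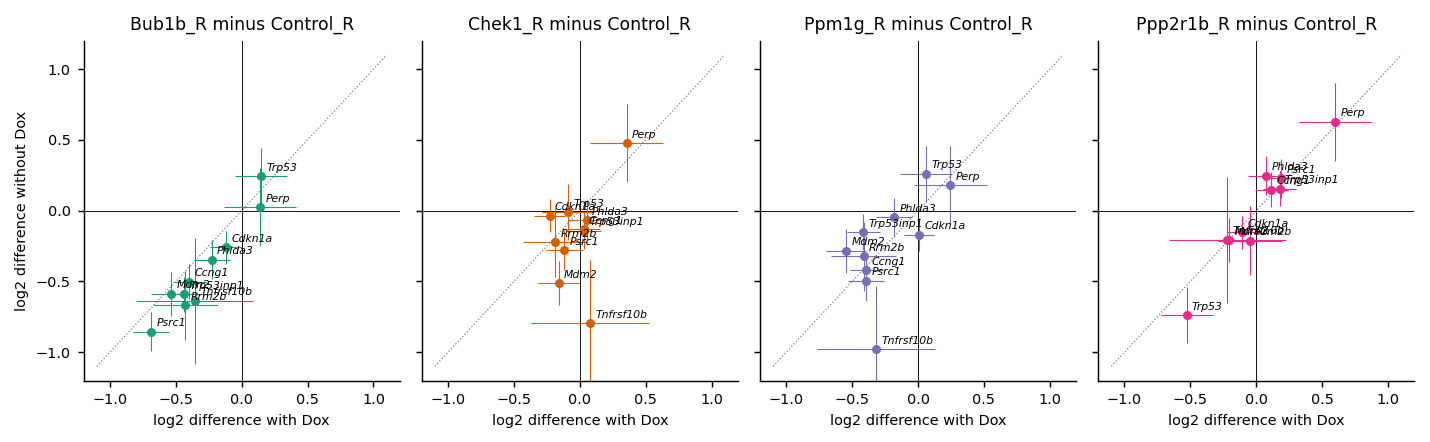
Difference of each depleted clone from Control_R in log2 intensity with Dox (horizontal axis) and without Dox (vertical axis) for the 10 genes' brightest probes, with 95% intervals from limma and a dotted line of equal differences. In Bub1b_R 8 of 10 genes lie below 0 on both axes, and Tnfrsf10b lies far under the line for the arrays labelled Chek1_R and for Ppm1g_R. Both axes use Control_R.

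Other genes of the pathway were read from 3 lists. Of 29 other p53 targets, 25 were tested. On Dox withdrawal 1 was higher and 0 lower for Bub1b_R, 1 and 3 for the arrays labelled Chek1_R, 1 and 0 for Ppm1g_R, 1 and 1 for Ppp2r1b_R and 1 and 0 for Control_R. Their medians were −0.11, −0.17, −0.06, −0.06 and 0.02. Of all genes, 6.24%, 9.92%, 4.63%, 4.97% and 1.15% passed the same threshold in the same order of clones.

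Sfn, which encodes 14-3-3 sigma, an epithelial protein that holds cells in G2, was the one gene of this list that rose in more than 1 depleted clone. Its mean log2 intensity went from 8.64 to 9.55 for Bub1b_R, from 8.51 to 9.58 for the arrays labelled Chek1_R and from 9.17 to 9.89 for Ppm1g_R. In Control_R it rose as well, from 7.00 to 7.62 (0.62, adjusted p = 0.00339 in limma). The remaining calls, named after their values were seen, were lower Plk3 (−1.02), Dcxr (−0.75) and Lrdd (−0.68) on the arrays labelled Chek1_R, and higher Tap1 (0.67) and lower Sesn2 (−0.63) in Ppp2r1b_R.

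Of 24 regulators of p53, 19 were tested and 1 passed on Dox withdrawal, in Ppm1g_R, beside 4.63% of all genes there. Cdkn2a, which encodes the MDM2 inhibitor ARF and the kinase inhibitor p16, rose by 0.80 in Ppm1g_R (SE 0.15, adjusted p = 0.000279 in limma). The largest mean changes over the 4 clones after that of Cdkn2a (0.37) were those of the ubiquitin ligase gene Rchy1 (−0.30) and of the damage kinase gene Atm (0.27). Of 8 genes for inhibitors of cyclin-dependent kinases, 6 were tested: Cdkn1c (p57) rose by 0.66 in Bub1b_R (SE 0.083, adjusted p = 1.69e-06 in limma), with values of 0.26 to 0.34 in the other 3 depleted clones and −0.06 in Control_R. The mean change of Cdkn2b was 0.17.

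**Figure D5:**
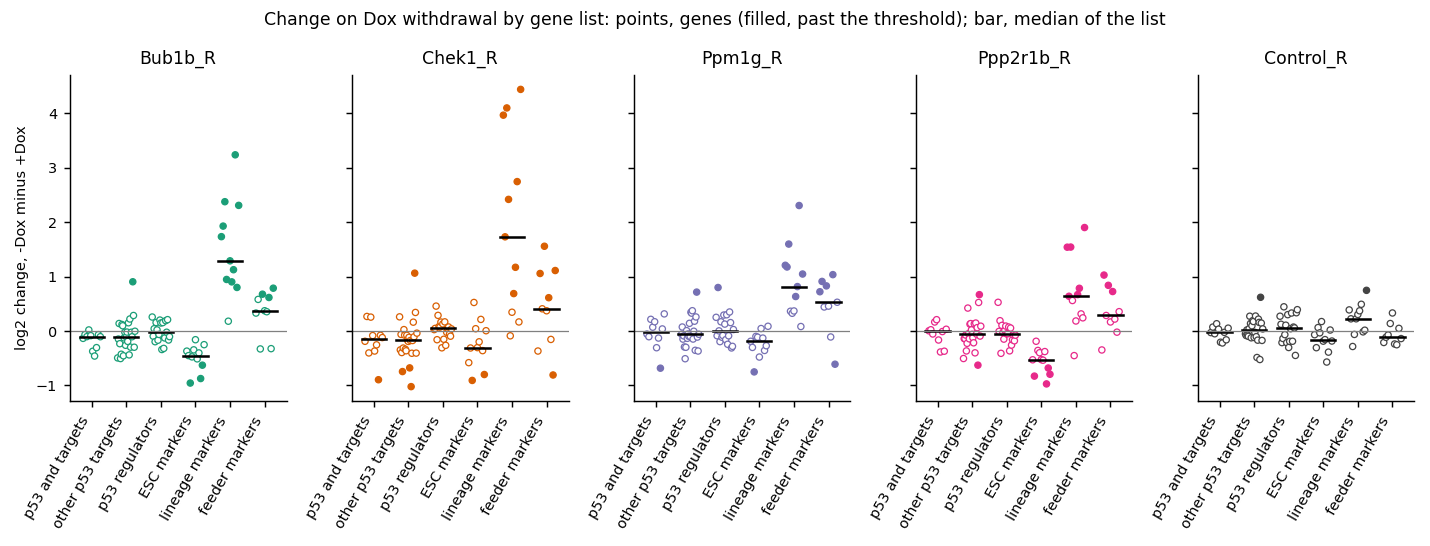
Change on Dox withdrawal (vertical axis, log2) of each tested gene of 6 lists (horizontal axis) in each clone, with filled points past the threshold and bars at the list's median. The p53 lists have medians between −0.17 and 0.06 in every clone, and the lineage markers between 0.64 and 1.73 in the depleted clones.

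Markers of the cells' state moved on the same arrays. Of 11 tested markers of differentiating lineages, 10, 8, 7 and 6 were higher without Dox in Bub1b_R, the arrays labelled Chek1_R, Ppm1g_R and Ppp2r1b_R, and 1 in Control_R; of 11 ESC markers 3, 2, 1, 4 and 0 were lower. The summed signal of the 15 lineage markers on the array was 4622 to 5626 with Dox and 14845 to 16878 without for Bub1b_R, 5798 to 6428 and 14851 to 22996 for the arrays labelled Chek1_R, and 11079 to 14692 and 19334 to 21932 in Ppm1g_R. It was 6793 to 9218 and 10125 to 14154 in Ppp2r1b_R, and 1364 to 1771 and 1963 to 2480 in Control_R. In such bulk samples a smaller share of cells of a type and less RNA per cell cannot be told apart. The part of cell state in the members' values was not tested.

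Of 14 fibroblast feeder markers, 9 were tested, and 3, 4, 4, 3 and 0 were higher and 0, 1, 1, 0 and 0 lower without Dox in the same order of clones, the lower one being Thy1. Their summed signal was 7659 to 8545 with Dox and 10249 to 11816 without for Bub1b_R, 8444 to 9967 and 6587 to 10163 for the arrays labelled Chek1_R, and 6421 to 8470 and 9848 to 10945 in Ppm1g_R. It was 3945 to 5424 and 3030 to 4250 in Ppp2r1b_R and 3201 to 4158 and 2817 to 3579 in Control_R. Of the 14, Col1a2, Postn, Lum, Fap and S100a4 were detected on no array. The collagen gene Col1a1 was detected on every array and was higher without Dox by 1.06 for the arrays labelled Chek1_R, 0.91 for Ppm1g_R and 1.03 for Ppp2r1b_R. Dcn was called higher in all 4 depleted clones, but with Dox it was detected on 1 of 3 arrays in Bub1b_R and 0 of 3 in the others. Beside the change in Control_R it had adjusted p of 0.181 in Bub1b_R and 0.0788 in Ppm1g_R (limma). The bright marker Acta2 changed by 0.33, −0.37, 0.72 and −0.35 in the same order of depleted clones. The part of these cells in the members' values was not tested.

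The members did not move as 1 group across the arrays. With clone means removed, the 45 pairs of members had correlations from −0.72 to 0.73 over the 30 arrays, with a median of 0.02, 23 above 0 and 5 above 0.5. The genes most like Trp53 by this measure were Bcat1 (r = 0.87), Ddx49 (0.87) and Rpo1-4 (0.86), those most like Mdm2 were Rmnd1 (0.81), Dpp4 (0.80) and Tardbp (0.80), and those most like Cdkn1a were Gad1 (0.80), Gpr172b (0.79) and LOC667370 (0.77), the last a dim probe. These are descriptions over arrays that share clones and Dox.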

How the data were processed

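Total RNA of 30 samples was hybridised to Illumina Mouse WG8-V2 bead arrays. The authors deposited non-normalized signal intensity and a detection p-value for each probe and array; the submitters' processing notes name lumi, with no version. In 60 cells the deposited detection p-value had become a time of day; 34 were converted back and 26 took the value of the nearest signal on that array.

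Intensities were background corrected and quantile normalized with neqc (offset 16, log2) in limma 3.58.1 (R 4.3.3; statmod 1.5.0). The probes tested were those detected (p under 0.05) on 3 arrays or more. One limma fit held a mean for each of the 10 conditions (20 residual degrees of freedom), with Benjamini-Hochberg adjustment over all 15151 probes and a call needed both an adjusted p below 0.05 and a fold of 1.5 or more. The brightest probe stood for a gene. The number of arrays limits the precision. No 2 arrays were identical. The steps were tested on simulated data. The alternatives were background correction, scaling, offset, filters, fold limits, the samples fitted, the methods' t-test, the probe used, the replicate block and leaving out each array. The members and lists were chosen with earlier results of these data known. List genes were named when called in at least 2 depleted clones or, failing that, by the largest mean change. The shRNA sequences are the study's own, and promoter sequences and positions are from RefSeq (GRCm38.p6). A further clone of the study, Aurka_R, was not analysed here.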

Additional observations from a re-analysis of the deposited data

Results flagged for a closer look

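The change on Dox withdrawal differed among the 4 depleted clones (F-test in limma, adjusted p under 0.05) for 9 probes of 6 members. These were Mdm2 (0.00132 for the brightest probe and 0.000122 for the second), Cdkn1a (0.00455 and 0.00453), the third probe of Ccng1 (0.0343), the brightest probes of Trp53inp1 (0.00172) and Phlda3 (0.0256), and the second (2.24e-05) and the third (0.0487) probe of Tnfrsf10b. By brightest probes, 4 of 10 members passed, beside 26% of all genes. With median scaling the brightest probe of Cdkn1a still passed (0.0135), while those of Mdm2 (0.13), Trp53inp1 (0.546) and Phlda3 (0.695) did not.

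The change differed from that in Control_R (limma, adjusted p under 0.05) for 8 probe values, given here in log2. On the arrays labelled Chek1_R they were −0.35 and −0.38 for the brightest and second probes of Mdm2 and −0.87 for the brightest probe of Tnfrsf10b. In Ppm1g_R they were −0.42 for the second probe of Cdkn1a, 0.37 for the second probe of Ccng1 and −0.50 for the second probe of Tnfrsf10b. In Bub1b_R the third probe of Ccng1 gave −0.45, and in Ppp2r1b_R the second probe of Tnfrsf10b gave 0.35. The other probes of Ccng1, Cdkn1a and Tnfrsf10b did not pass in the same clones. The share of all genes at this adjusted p with no fold limit was not counted. With the 1.5-fold limit it was 5.56% for Bub1b_R, 9.6% for the arrays labelled Chek1_R, 5.56% for Ppm1g_R and 3.42% for Ppp2r1b_R.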

How the results depend on the processing

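The 2 calls on Dox withdrawal became 14 with no fold limit (4 higher, 10 lower), 1 with normalization within each clone or only the arrays compared, and 0 with a 2-fold limit, the methods' t-test, the mean of all tested probes or the second brightest probe, which was chosen after seeing the data; leaving out 1 array gave 1 to 2. The methods' t-test gave 16 of 40 at an unadjusted p under 0.05, 7 after Benjamini-Hochberg adjustment and 0 of those at 1.5-fold. The 1 call beyond Control_R became 2 with no fold limit and 0 with no background correction, no detection filter, a 2-fold limit, the mean of the probes or the second probe, and 0 to 2 on leaving out 1 array. The 0 calls of the mean over clones became 5 with no fold limit, and the 4 members differing among clones became 1 with median scaling. The mean change of Ccng1 reversed with its second probe (0.13). In Control_R the count was 0 under every alternative.

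The 9 differences from Control_R without Dox became 5 with median scaling, 29 with no fold limit, 0 with a 2-fold limit and 15 with the second probe; for Bub1b_R the 5 became 1, 9 and 0 under the first 3 settings, 3 with an offset of 50 or the mean of the probes, and 3 to 4 on leaving out 1 array. The 2 with Dox became 5 with no background correction, 19 with no fold limit, 4 with the mean of the probes, 8 with the second probe, 1 with an offset of 50, the stricter filter or the t-test, 0 with a 2-fold limit, and 1 to 3 on leaving out 1 array. The totals of 9 and 2 include Perp in Ppp2r1b_R, and the 2 became 1 without replicate 3 of Ppp2r1b_R or replicate 1 of Control_R with Dox. The 1 of Bub1b_R became 2 with no background correction or the second probe, 6 with no fold limit, 0 with median scaling or a 2-fold limit, and 1 to 2 on leaving out 1 array. The cause was not tested. With the replicate number as a block the counts stayed at 2, 1, 0, 4, 9 and 2; same-numbered arrays correlated at −0.08 to 0.13 in their deviations, so the numbers were not taken to pair the arrays. Of single named values under other settings, 282 kept their side of the threshold, 33 lost it and 1 reversed.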
